A study of Mus musculus with 17 samples.

Results

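The genes described here are the 46 autophagy and mitophagy genes of a named list, measured in 17 kidney RNA libraries, taken here as 1 mouse each, of a mouse model of TFE3-rearranged renal cell carcinoma. They are a list of gene names set by known part in the pathway, with no threshold on values but drawn up with earlier results of these data known, and the expected counts of all transcripts of a gene were summed, so that the 46 members are 46 of 35971 genes. All 46 were found in the data and all 46 passed the filter on low counts. Every mouse carried lsl-PRCC-TFE3 KI, a knockin of the PRCC-TFE3 fusion behind a stop cassette that Cre recombinase removes. The control mice (Cre(−), n = 4) carried that allele without KSP-Cre, and of them replicates 1 and 2 also carried HIF1af/f whereas replicates 3 and 4 carried no flox allele. KI mice (n = 3) carried the allele with KSP-Cre, Hif1α KO mice (n = 4) with KSP-Cre and HIF1af/f, Hif2α KO mice (n = 3) with KSP-Cre and HIF2af/f, and DKO mice (n = 3) with KSP-Cre and both flox alleles, so that all 4 of these groups have the fusion switched on (the plots name the last 3 groups KI/Hif1α KO, KI/Hif2α KO and KI/DKO). KSP-Cre is driven by the promoter of Cadherin 16, a gene of the kidney tubule epithelium, and the other cells of the kidney keep the stop cassette and intact HIF genes. The labels give neither the age nor the sex of the mice. No library batch is given, and library numbers run largely by group.

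Macroautophagy wraps cytoplasm, proteins or organelles in a double membrane and delivers them to lysosomes. The ULK kinase complex starts it, the class III PI3-kinase complex marks the membrane with PI3P, ATG9 vesicles and ATG2 lipid transfer proteins feed it, and 2 ubiquitin-like conjugation systems attach ATG8 proteins of the LC3 and GABARAP families, which cargo receptors bind. Mitophagy is the same process aimed at mitochondria, through receptors such as BNIP3, NIX (encoded by Bnip3l) and FUNDC1. TFE3 and its relative TFEB are transcription factors known for driving lysosomal and autophagy genes, and Bnip3 and Bnip3l are well-known target genes of hypoxia-inducible factors.

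Library totals ranged from 16504419 to 24668827 expected counts. Values below are CPM, counts relative to the library total as scaled by TMM, where 3 counts correspond to 0.117 to 0.206 CPM, and levels of different genes are compared only in TPM, deposited values relative to the library total which also take transcript length into account. Expected counts are estimates and such floors cover counting error only. Differences are log2 fold changes ± SE from edgeR's quasi-likelihood test over all 17011 genes that passed the filter, and a gene is said to have risen or fallen where its Benjamini-Hochberg adjusted p was under 0.05. Summed CPM of 10 proximal tubule markers was 19484 to 25506 in Cre(−) and 762 to 920 in KI kidneys, and that of 5 thick ascending limb markers 5465 to 7112 and 884 to 1534. The 5 macrophage markers summed to 139 to 168 CPM in Cre(−) and 1405 to 1434 in KI kidneys, of which Cd68 alone gave 3.24 to 5.76 and 1061 to 1151, and the other 4 gave 135 to 162 and 283 to 345. Among those 4, Csf1r went the other way, with 89.2 to 101 CPM in Cre(−) and 82.8 to 84.6 CPM in KI kidneys. Of all markers used, Lep was the only one found at 3 counts or fewer in any library. Bulk RNA cannot tell fewer cells of a type from less RNA per cell, and the part of these shifts in the results below was not tested. Hif1a had 163 to 198 CPM in Hif1α KO and 184 to 232 in KI kidneys, and Epas1, the gene of Hif2α, had 136 to 149 in Hif2α KO and 173 to 192 in KI kidneys; both counts cover the whole gene, so they do not check the deletion of the floxed part.

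Leaving aside the barely detected Atg9b, the members with the largest rises in KI against Cre(−) kidneys were Optn, Sqstm1, Plekhm1, Atg7 and Uvrag. Optn and Sqstm1 encode the cargo receptors optineurin and p62, and Plekhm1 encodes an adaptor for fusion with lysosomes. Atg7 encodes the E1-like enzyme of both conjugation systems, and Uvrag a subunit of the class III PI3-kinase complex. Of the 46 members, 16 rose and 13 fell in KI against Cre(−) kidneys (63.0%, against 60.9% of all genes tested), so that the share of members that changed was close to that of the transcriptome. Those that rose were 34.8% of the members (31.6% of all genes) and those that fell 28.3% (29.3%). Values of the 2 groups did not overlap for 26 members, against 56.6% of all genes. The median log2 fold change of the members was 0.08, beside 0.03 for all genes tested. The direction of the smaller changes depends on the scale. On TPM as deposited, where the 100 most abundant genes hold a larger share of Cre(−) libraries (34.7% to 38.1% of counts, against 24.1% to 26.4% in KI), limma on log2(TPM + 1) called 31 members higher and 1 lower, with a median log2 fold change of 0.38 over all genes. All 16 members that rose lay above that median and all 13 that fell lay below it, but only 4 of the 13 were below 0 on that scale (Wipi2, Atg9a, Atg10 and Atg4d), and the other 9 were above 0 (Rb1cc1, Becn1, Wipi1, Atg5, Atg4a, Atg4c, Nbr1, Tax1bp1 and Rab7). The falls given below are therefore falls relative to the other genes.

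**Figure D1:**
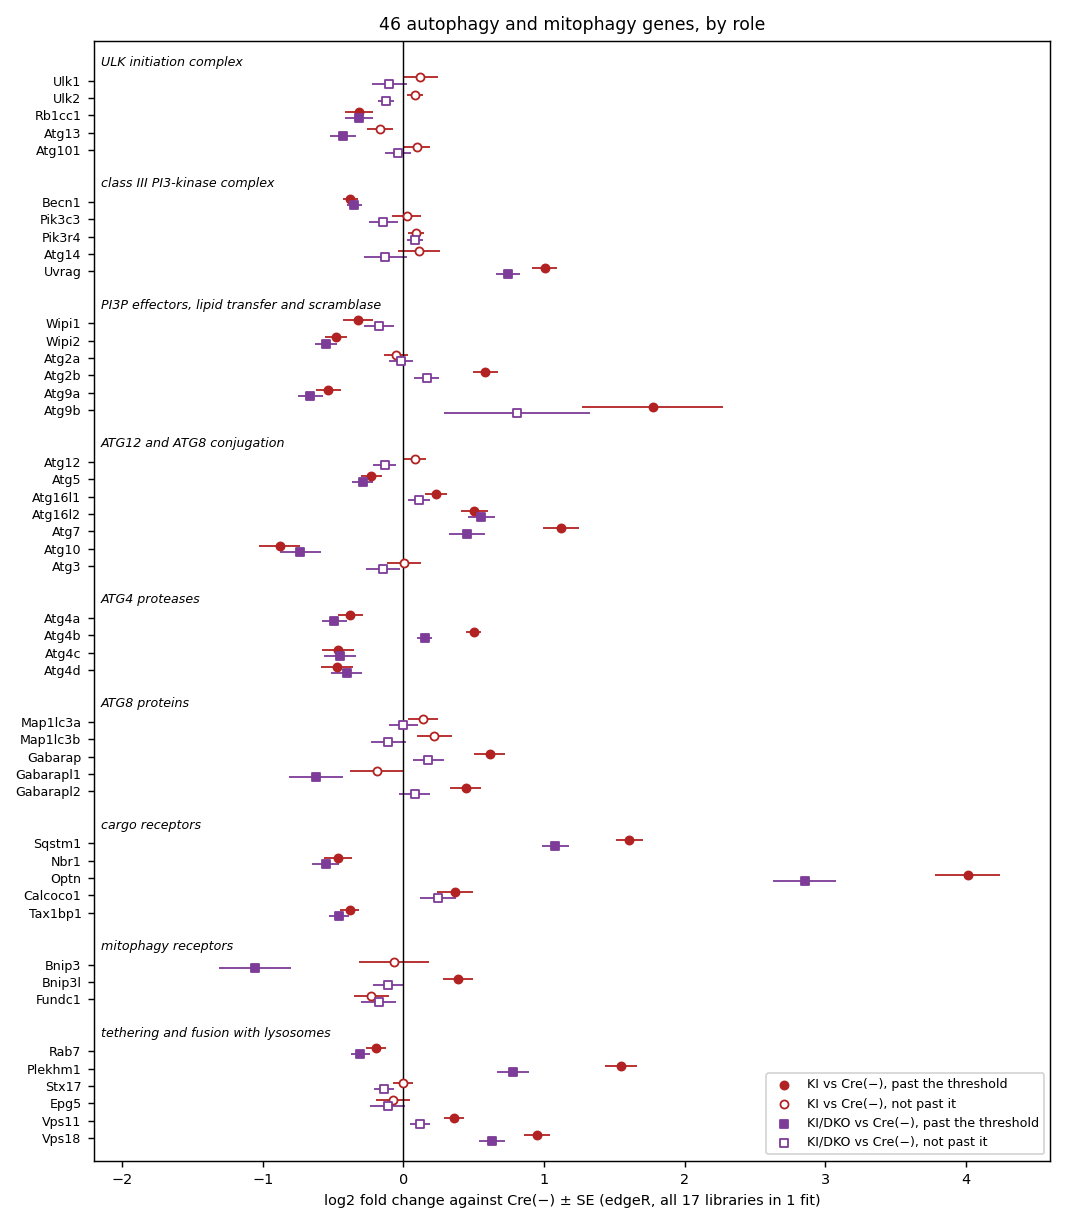
Log2 fold change ± SE against Cre(−) (horizontal axis) of each of the 46 members (vertical axis, by role), in KI (red circles) and DKO kidneys (purple squares), with filled symbols for an adjusted p under 0.05. Optn lies at 4.01 in KI and 2.85 in DKO kidneys, the other members lie between -1.06 and 1.77.

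Optn had 24.4, 21.4, 28.7 and 28.5 CPM in Cre(−) replicates 1 to 4 and 459, 387 and 400.1 CPM in KI replicates 1 to 3, the order kept for all values below. Every KI value was more than 10 times every Cre(−) value, and the log2 fold change was 4.01 ± 0.23 (adjusted p = 2.69e-09, 16.1-fold). Sqstm1 had 423, 418, 392 and 405 CPM in Cre(−) and 1262, 1142 and 1339 CPM in KI kidneys (1.61 ± 0.10 on the log2 scale, adjusted p = 4.23e-09). The Sqstm1 gene shares exon sequence on the opposite strand with Mrnip, as do Atg2b with Gskip, Atg9a with Ankzf1, Atg16l2 with Fchsd2, Atg4d with Kri1 and Map1lc3b with Zcchc14, and whether counting used the strand is not given in the sources used here, so that these values may hold reads of the partner. Atg4a, Bnip3l and Rab7 have annotated pseudogenes that could share their reads. Plekhm1 had 58, 52.3, 57.9 and 57.8 CPM in Cre(−) and 146, 161 and 188 CPM in KI kidneys (1.55 ± 0.12, adjusted p = 2.93e-08), and Uvrag had 35.6, 32.7, 39.5 and 32.8 CPM in Cre(−) and 68.2, 70.9 and 72.4 CPM in KI kidneys (1.00 ± 0.09, adjusted p = 1.32e-07). For none of these 4 genes did the groups overlap, and the rises of all 4 passed the threshold under each alternative setting and without each library in turn.

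The promoter windows of these 4 genes are printed below, with those of Bnip3, the hypoxia-responsive mitophagy receptor, and of Atg3, the E2-like enzyme of ATG8 conjugation and the one member whose window holds the whole palindrome TCACGTGA known for the TFE/MITF factors. Each window is 300 bases of RefSeq on GRCm38.p6, from 250 before to 50 after a gene start, written 5′ to 3′ on the strand of the gene, and capitals mark the searched words CACGTG, TCACGTGA, TCACATGA, TCATATGA and the hypoxia response core GACGTG, its form that reads TACGTG and its form that reads GGCGTG, read on both strands.
Optn, chr2:5064068-5064367, minus strand: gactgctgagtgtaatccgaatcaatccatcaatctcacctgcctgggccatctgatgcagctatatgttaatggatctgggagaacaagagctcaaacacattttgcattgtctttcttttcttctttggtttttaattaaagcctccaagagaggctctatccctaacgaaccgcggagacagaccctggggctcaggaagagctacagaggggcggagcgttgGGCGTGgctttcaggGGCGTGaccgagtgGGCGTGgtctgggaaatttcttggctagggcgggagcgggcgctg
Sqstm1, chr11:50210771-50211070, minus strand: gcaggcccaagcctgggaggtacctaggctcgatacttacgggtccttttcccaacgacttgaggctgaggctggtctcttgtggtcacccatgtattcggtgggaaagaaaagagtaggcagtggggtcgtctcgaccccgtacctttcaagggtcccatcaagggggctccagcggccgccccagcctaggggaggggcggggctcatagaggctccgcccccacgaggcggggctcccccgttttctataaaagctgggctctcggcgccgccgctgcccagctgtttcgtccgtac
Plekhm1, chr11:103412656-103412955, minus strand: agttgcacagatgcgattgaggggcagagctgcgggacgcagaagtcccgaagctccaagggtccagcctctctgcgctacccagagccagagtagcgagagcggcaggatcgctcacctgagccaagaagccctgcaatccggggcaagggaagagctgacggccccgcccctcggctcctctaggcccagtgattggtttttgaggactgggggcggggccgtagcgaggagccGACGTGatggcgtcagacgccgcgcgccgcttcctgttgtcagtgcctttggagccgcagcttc
Uvrag, chr7:99141095-99141394, minus strand: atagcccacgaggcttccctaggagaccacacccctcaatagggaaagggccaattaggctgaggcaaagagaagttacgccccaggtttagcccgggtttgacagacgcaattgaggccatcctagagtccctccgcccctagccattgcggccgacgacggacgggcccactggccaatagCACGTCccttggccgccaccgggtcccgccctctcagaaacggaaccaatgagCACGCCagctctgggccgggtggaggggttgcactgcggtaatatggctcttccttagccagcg
Bnip3, chr7:138909457-138909756, minus strand: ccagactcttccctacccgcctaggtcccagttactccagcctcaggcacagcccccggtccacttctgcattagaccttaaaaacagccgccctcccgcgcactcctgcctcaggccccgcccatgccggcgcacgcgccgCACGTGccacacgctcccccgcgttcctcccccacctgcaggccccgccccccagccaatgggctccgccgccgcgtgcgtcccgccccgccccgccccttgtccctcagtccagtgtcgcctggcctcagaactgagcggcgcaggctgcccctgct
Atg3, chr16:45158579-45158878, plus strand: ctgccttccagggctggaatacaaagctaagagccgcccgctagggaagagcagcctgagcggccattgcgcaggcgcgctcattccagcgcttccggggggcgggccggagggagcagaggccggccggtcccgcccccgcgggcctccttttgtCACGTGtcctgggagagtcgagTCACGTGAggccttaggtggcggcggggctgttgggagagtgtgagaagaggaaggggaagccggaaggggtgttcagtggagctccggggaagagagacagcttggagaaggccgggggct

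GGCGTG occurs 3 times in the Optn window, starting 24 and 9 bases before and 5 bases after the start, whereas Sqstm1 has none of the words. Plekhm1 has GACGTG 14 bases before its start, and Uvrag has GACGTG 67 and GGCGTG 14 bases before its start, both on the other strand, so that its printed capitals are their reverse complements. Bnip3 has CACGTG 108 bases before its start. Atg3 has TCACGTGA 72 bases before its start and a further CACGTG 94 bases before it. Windows were at hand for 37 of the 46 members (42 windows, since some genes have several starts). TCACGTGA was in the window of 1 member and in 0.974% of all 32851 windows, TCATATGA was in that of Atg13 (0.323% of all), and TCACATGA was in no member window (0.986% of all). CACGTG, which is also the core of TCACGTGA, was in 11.9% of member windows (Atg3, Atg5, Atg7, Atg14 and Bnip3) and in 7.15% of all. At least one of the 3 words searched as hypoxia response cores was in 52.4% of member windows and in 22.7% of all windows. The set of all windows was not matched to the members for base composition, and the part of base composition in this difference was not tested. CACGTG ends in ACGTG, as GACGTG and TACGTG do, and can also be read as such a core. It was not among the 3, so Bnip3 is not counted in these shares. Of further words that end in ACGTG or GCGTG none was searched, and the Bnip3 window also holds GCGTG, unmarked. The CACGTG of Atg7 lies in the window of a start 27999 bases into the gene model used for counting, and that of Atg14 2215 bases into its model. The GACGTG of Atg4a lies in the window of a start 3062 bases before its gene model, and the window at the start of that model has none of the words. These are matches of letters in short windows and do not show binding.

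Among the 5 genes of the ULK initiation complex, none rose and 1 fell. Rb1cc1, which encodes the scaffold FIP200, had 77.5, 85, 94.7 and 81.8 CPM in Cre(−) and 60.1, 69.7 and 74.9 CPM in KI kidneys (-0.31 ± 0.10, adjusted p = 0.0127), a call that was lost without KI replicate 1 (adjusted p = 0.0787). The kinase gene Ulk1 had 108, 99.5, 110.3 and 108 CPM in Cre(−) and 97.3, 97 and 152 CPM in KI kidneys. Only KI replicate 3 was above the Cre(−) range in CPM, whereas in TPM the groups did not overlap (34.1 to 37.0 in Cre(−) and 40.5 to 60.4 in KI). Ulk1 did not pass the test, nor did Ulk2, Atg13 or Atg101. Among the 5 genes of the class III PI3-kinase complex, Uvrag rose, as given above, and Becn1, which encodes the core subunit Beclin 1, fell. Becn1 had 129, 133, 131 and 136 CPM in Cre(−) and 101, 102 and 103 CPM in KI kidneys, with no overlap (-0.38 ± 0.05, adjusted p = 1.4e-05). It shares exon sequence on the opposite strand with Cntd1. The catalytic subunit gene Pik3c3, its partner Pik3r4 and Atg14, which directs the complex to autophagy where Uvrag directs it to endosomes, did not pass the test, with 29.9 to 38.9, 40.0 to 43.5 and 19.1 to 32 CPM in KI and 28.3 to 35.9, 38.7 to 40.8 and 20.6 to 26.3 CPM in Cre(−) kidneys.

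Of the 6 genes for PI3P effectors, lipid transfer and scrambling, 2 rose and 3 fell. Atg2b, a lipid transfer protein, rose, with 60.7 to 71.2 CPM in Cre(−) and 84.9 to 108 CPM in KI kidneys (0.58 ± 0.09, adjusted p = 4.83e-05). In CPM the paralogous scramblases moved in opposite directions. In TPM the values of Atg9a overlapped between the groups (18.8 to 21.4 in Cre(−) and 18.5 to 19.6 in KI kidneys). Atg9a had 75.3, 63.7, 62.8 and 65 CPM in Cre(−) and 42.7, 45.8 and 49.7 CPM in KI kidneys (-0.53 ± 0.09, adjusted p = 9.01e-05). Atg9b had 0.274, 0.375, 0.463 and 0.253 CPM in Cre(−) and 0.747, 0.754 and 2.05 CPM in KI kidneys (1.77 ± 0.50, adjusted p = 0.00626). It had the lowest TPM of any member in both groups. Its groups did not overlap, but its Cre(−) values lay close to the floor of 3 counts, it shares exon sequence with Nos3 on the opposite strand, and without KI replicate 3 the change was 1.12 and no longer called (adjusted p = 0.0711). Wipi2, which reads PI3P and recruits the ATG16L1 complex, had 122, 119, 103 and 110.5 CPM in Cre(−) and 78.3, 75.1 and 91.4 CPM in KI kidneys (-0.48 ± 0.08, adjusted p = 5.44e-05). Its paralog Wipi1 had 42.6, 39.1, 35.5 and 38.5 CPM in Cre(−) and 28.1, 27 and 38.5 CPM in KI kidneys, an overlap through KI replicate 3. The fall of Wipi1 (-0.32 ± 0.11, adjusted p = 0.017) was lost without KI replicate 1 (adjusted p = 0.0885) or KI replicate 2 (0.107). Atg2a did not pass the test.

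In the conjugation systems 3 of 7 genes rose and 2 fell. Atg7 rose from 28.3, 29.5, 26.1 and 26.3 CPM in Cre(−) to 55.8, 57.2 and 66.6 CPM in KI kidneys (1.12 ± 0.13, adjusted p = 1.72e-06). Atg10, the E2-like enzyme that acts on ATG12, fell from 15.6, 17.6, 12.9 and 13.8 CPM in Cre(−) to 7.53, 8.78 and 8.1 CPM in KI kidneys (-0.88 ± 0.15, adjusted p = 9.5e-05), the largest fall of any member. The E1-like enzyme and the E2-like enzyme of the ATG12 branch thus moved apart, and neither overlapped between groups. Atg16l2 (0.50, adjusted p = 0.000382) and Atg16l1 (0.23, adjusted p = 0.0171) rose, the latter with adjusted p = 0.052 without Cre(−) replicate 1, and Atg5 fell (-0.23, adjusted p = 0.0146), with adjusted p = 0.0715 without KI replicate 2. Atg12 and Atg3 did not pass the test, and Atg3, whose window holds the palindrome printed above, had 44.8 to 61.4 CPM in Cre(−) and 47.2 to 56.6 CPM in KI kidneys but, without overlap, 23.7 to 32.5 and 37.2 to 44.6 TPM. Of the 17 members that did not pass the test, 14 passed in at least 1 alternative, and 4 in at least 1 that used counts. All 4 genes of the ATG4 proteases, which trim ATG8 proteins and release them from lipid, changed, and Atg4b, the one with the highest TPM in KI kidneys (55 ± 3.19, mean ± SD, n = 3), went the other way from the rest. Atg4b had 40.9, 41.1, 37.8 and 41.2 CPM in Cre(−) and 56.3, 55.5 and 59.2 CPM in KI kidneys (0.50 ± 0.05, adjusted p = 1.02e-06). Atg4a, Atg4c and Atg4d fell by 0.38, 0.47 and 0.47 on the log2 scale (adjusted p = 0.0017, 0.00213 and 0.00193). In TPM the values of each of these genes overlapped between the groups.

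Of the 5 ATG8 genes, Gabarap and Gabarapl2 rose and Map1lc3a, Map1lc3b and Gabarapl1 did not pass the test. Gabarap had 236, 236, 189.9 and 217 CPM in Cre(−) and 333, 313 and 361 CPM in KI kidneys (0.61 ± 0.11, adjusted p = 0.000206), and Gabarapl2 had 69.8, 78.5, 59.4 and 53.3 CPM in Cre(−) and 90.9, 82.9 and 92.6 CPM in KI kidneys (0.44 ± 0.11, adjusted p = 0.00254). Neither gene overlapped between the groups. Map1lc3b, which encodes the LC3B of common autophagy assays, had 185, 167, 163 and 179 CPM in Cre(−) and 169, 174 and 262 CPM in KI kidneys. Gabarapl1 had 1092, 819.6, 959 and 1083 CPM in Cre(−) and 679.7, 665 and 1262 CPM in KI kidneys. For both genes KI replicate 3 was the highest of all 17 libraries, whereas KI replicates 1 and 2 lay within the Cre(−) range for Map1lc3b and below it for Gabarapl1. These placements turn with the scale: in deposited TPM, Map1lc3b had 96.0 to 113 in Cre(−) and 152 to 214 in KI kidneys, without overlap, and KI replicates 1 and 2 of Gabarapl1 (610.4 and 597) lay within its Cre(−) range of 556 to 659. On the TPM scale Gabarapl1 was the most abundant member in Cre(−) kidneys (621 ± 48.1 TPM, mean ± SD, n = 4), followed by Sqstm1 (305 ± 11.8) and Gabarap (270.1 ± 36.7), and in KI kidneys the order was Sqstm1 (1331 ± 54.7 TPM, n = 3), Gabarapl1 (747 ± 248) and Gabarap (561 ± 16). Optn rose to the fourth place of the 46 in KI kidneys (279.9 ± 38.3 TPM). Of the summed TPM of the 5 ATG8 genes, Gabarapl1 made up 48.9% to 59.2% in Cre(−) and 39.1% to 50.7% in KI kidneys, and Gabarap 22.1% to 28.1% and 27.9% to 36.6%. Shares of both overlapped between the groups through KI replicate 3 alone. In the 3 groups with deletions Gabarapl1 made up 38.5% to 45.7%, and none of these 10 libraries reached the lowest Cre(−) share.

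**Figure D2:**
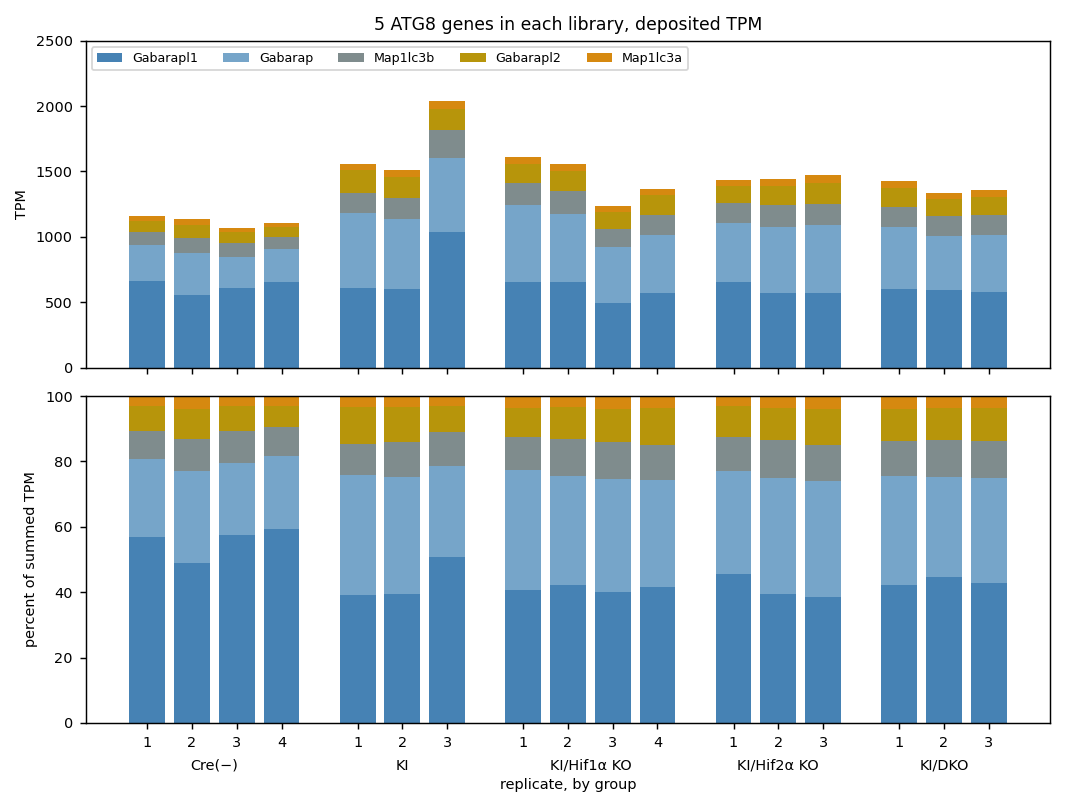
Deposited TPM (upper panel) and percent of summed TPM (lower panel) of the 5 ATG8 genes in each of the 17 libraries, by group and replicate. The sum ranged from 1066 to 1158 TPM in Cre(−) and from 1512 to 2039 TPM in KI kidneys, and KI replicate 3 has the tallest bar.

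All 5 cargo receptor genes changed. Beside Optn and Sqstm1, Calcoco1 rose (0.37, adjusted p = 0.0204). Its values overlapped in CPM (96.8 to 129.6 in Cre(−) and 126 to 185 in KI kidneys) but not in TPM (56.9 to 79.6 and 105 to 158). The call of Calcoco1 was lost without KI replicate 3 (0.17, adjusted p = 0.203) or Cre(−) replicate 2 (0.30, adjusted p = 0.0583). Nbr1, a relative of p62, fell from 281, 294, 286 and 279 CPM in Cre(−) to 183, 192 and 245 CPM in KI kidneys (-0.47 ± 0.10, adjusted p = 0.000695). Tax1bp1, a receptor for ubiquitinated cargo, also fell, with 342 to 375 CPM in Cre(−) and 269.6 to 291 CPM in KI kidneys (-0.38 ± 0.07, adjusted p = 0.000211). In CPM the cargo receptors therefore moved in both directions in the same kidneys. In TPM the values of Nbr1 overlapped between the groups (84.0 to 105 in Cre(−) and 81.5 to 106 in KI kidneys). Those of Tax1bp1 did so too (113 to 135 and 129 to 133 TPM). Of the 3 mitophagy receptors only Bnip3l rose. Bnip3l had 153, 154, 139 and 143 CPM in Cre(−) and 170.3, 165 and 241 CPM in KI kidneys (0.39 ± 0.11, adjusted p = 0.00581), with a log2 fold change of 0.19 (adjusted p = 0.0473) without KI replicate 3. Bnip3 had 122, 159.6, 113 and 117 CPM in Cre(−) and 62.2, 118 and 186 CPM in KI kidneys, a 3-fold spread between KI mice, and Fundc1 had 28, 31.1, 24.5 and 20.3 CPM in Cre(−) and 23, 22 and 21.5 CPM in KI kidneys. Neither passed the test.

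For tethering and fusion with lysosomes, 3 of 6 genes rose and 1 fell. Beside Plekhm1, Vps18 of the HOPS tethering complex had 32.8, 30.5, 28.6 and 29.5 CPM in Cre(−) and 64.1, 52.3 and 59.6 CPM in KI kidneys (0.95 ± 0.09, adjusted p = 4.16e-07), and Vps11 of the same complex rose by 0.36 (adjusted p = 0.00048). Rab7, the small GTPase of late endosomes that PLEKHM1 binds, fell, with 338 to 356 CPM in Cre(−) and 291 to 323 CPM in KI kidneys (-0.19 ± 0.07, adjusted p = 0.0225), a call that was lost without KI replicate 1 (adjusted p = 0.0772) or KI replicate 2 (0.0987). In TPM Rab7 went the other way without overlap, with 189 to 216 in Cre(−) and 247 to 255 in KI kidneys. The SNARE gene Stx17 and the tether gene Epg5 did not pass the test. KI replicate 3 stood apart among the KI libraries for these genes: it had the highest value of the 3 in 35 of the 46 members, against 37.4% of all genes tested, and the cause was not tested.

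**Figure D3:**
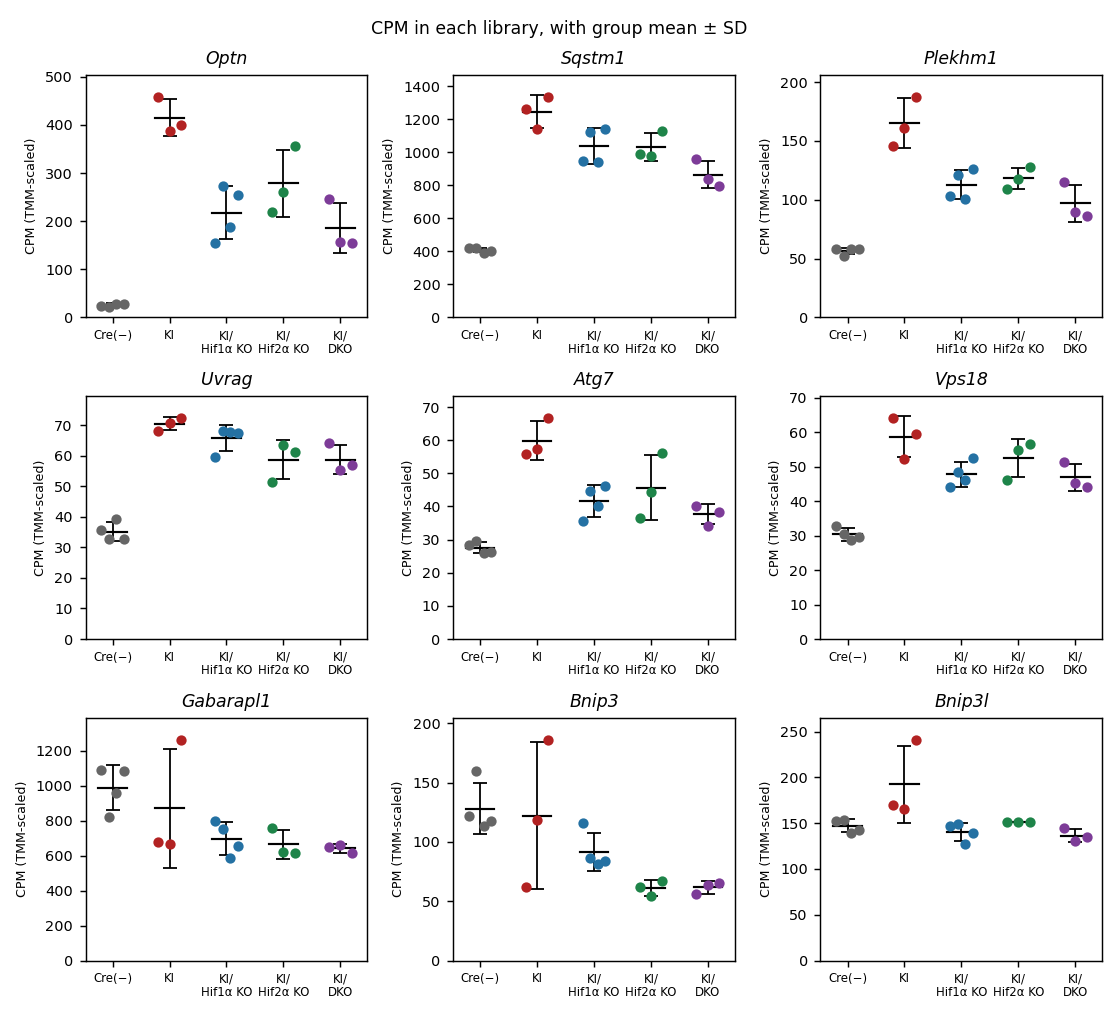
CPM on TMM-scaled library sizes of 9 members in each library (points, one colour per group), with group mean ± SD (black lines). Optn, Sqstm1, Plekhm1, Uvrag, Atg7 and Vps18 are above all Cre(−) values in every library of the 4 groups with the fusion, and Gabarapl1, Bnip3 and Bnip3l have their highest value in KI replicate 3.

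The DKO kidneys give a second set of fusion-expressing libraries, compared with the same 4 Cre(−) libraries. In them 8 members rose and 15 fell (50.0%, against 58.3% of all genes tested, of which 30.4% rose and 27.9% fell), and values did not overlap between the groups for 26 members (59.3% of all genes). On log2(TPM + 1) the split was 33 higher and 0 lower, with a median of 0.46 over all genes, and 5 of the 15 that fell were below 0 there (Bnip3, Atg10, Atg9a, Gabarapl1 and Wipi2). The 8 that rose were Optn (2.85 ± 0.22, adjusted p = 8.64e-08), Sqstm1 (1.08 ± 0.10, adjusted p = 3.03e-07), Plekhm1 (0.78 ± 0.11, adjusted p = 3.34e-05), Uvrag, Vps18, Atg16l2, Atg7 and Atg4b. The largest of the 15 falls were those of Bnip3 (-1.06 ± 0.26, adjusted p = 0.00258), Atg10 (-0.73 ± 0.15, adjusted p = 0.00051) and Atg9a (-0.66 ± 0.09, adjusted p = 1.39e-05). The other 12 that fell were Gabarapl1, Nbr1, Wipi2, Atg4a, Tax1bp1, Atg4c, Atg13, Atg4d, Becn1, Rb1cc1, Rab7 and Atg5. The call of Atg4b was lost without Cre(−) replicate 3 or DKO replicates 1 or 2 (adjusted p = 0.0688, 0.0597 and 0.0848), and that of Rb1cc1 without DKO replicate 1 (0.0794). Bnip3 had 55.7, 64 and 65.1 CPM in the DKO kidneys, all below the lowest Cre(−) value of 113 CPM.

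To ask what the HIF genes contribute in kidneys with the fusion, each deletion was compared with KI, so that the same 3 KI libraries stand in all 3 comparisons. Every member that passed the test was lower with the deletion than in KI kidneys, and none was higher (2.57%, 0.741% and 6.53% of all genes were, in Hif1α KO, Hif2α KO and DKO). In Hif1α KO kidneys 5 members fell (10.9%, against 5.44% of all genes tested, or 2.86% in this direction): Optn, Plekhm1, Atg7, Bnip3l and Atg4b. In Hif2α KO kidneys 1 member fell (2.2%, against 1.39% of all genes, or 0.647% in this direction), Atg4b. In DKO kidneys 11 members fell (23.9%, against 12.7% of all genes, or 6.19% in this direction): the same 5 and Sqstm1, Bnip3, Gabarap, Atg2b, Vps18 and Ulk2. Median log2 fold changes of the 46 members were -0.06, -0.15 and -0.14 in Hif1α KO, Hif2α KO and DKO against KI, each beside a median of all genes within 0.01 of 0. Values of members did not overlap with KI for 9, 12 and 20 of 46 (19.3%, 20.2% and 33.7% of all genes), and an unadjusted p under 0.05 was found for 12, 13 and 17 (22.1%, 19.2% and 29.1%). With the 3 deletions the 10 proximal tubule markers summed to 1012 to 2889, 766 to 2574 and 1673 to 2830 CPM (762 to 920 in KI), and the 5 fibroblast markers to 633 to 779, 818 to 880 and 766 to 1181 CPM (482 to 515 in KI). The 5 thick ascending limb markers summed to 2172 to 4380, 2004 to 3659 and 2759 to 4510 CPM, all above the 884 to 1534 of KI. The 5 adipocyte markers summed to 53.6, 759 and 82.4 CPM in KI replicates 1 to 3 and to 49.3 to 217 CPM in the 10 libraries with a deletion. Cd68 had 477 to 732, 616 to 784 and 349 to 577 CPM, and the other 4 macrophage markers 318 to 457, 383 to 508 and 358 to 400 CPM. The part of these marker shifts in the falls of the members was not tested.

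**Figure D4:**
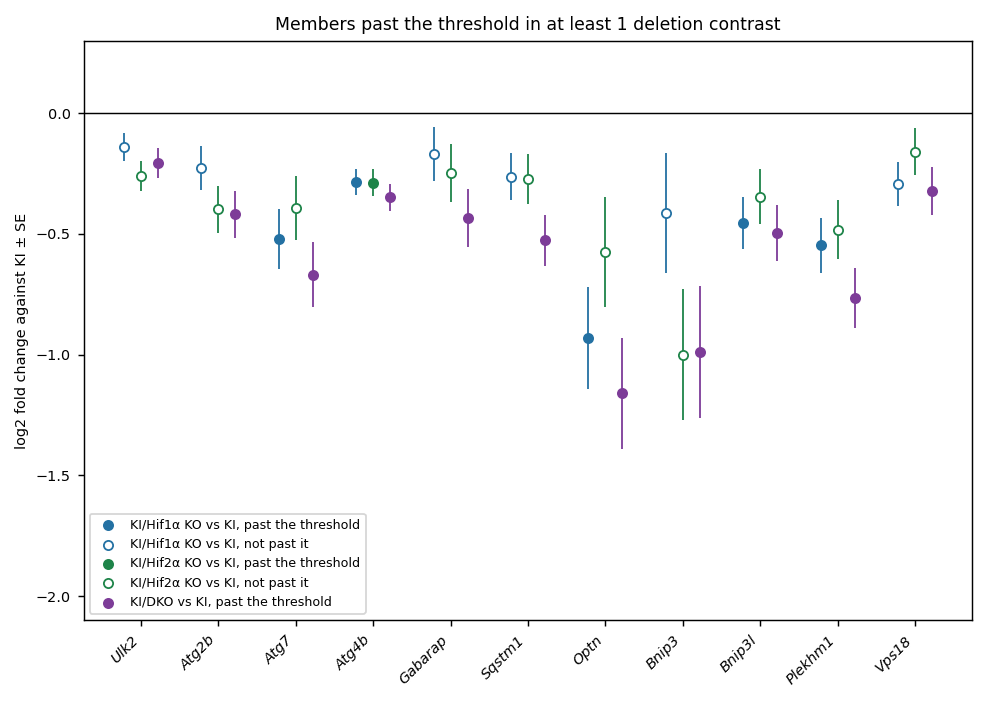
Log2 fold change ± SE against KI (vertical axis) of the 11 members past the threshold in at least 1 of the 3 deletion contrasts, for Hif1α KO (blue), Hif2α KO (green) and DKO kidneys (purple), with filled symbols for an adjusted p under 0.05. All 33 values are below 0, and the largest are those of Optn and Bnip3.

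Optn had 155, 274, 188 and 253 CPM in the 4 Hif1α KO, 219.8, 262 and 355 CPM in the 3 Hif2α KO and 246, 156 and 156 CPM in the 3 DKO kidneys. All 10 values were below the KI range and above the Cre(−) range. The log2 fold changes against KI were -0.93 ± 0.21 in Hif1α KO (adjusted p = 0.0224), -0.57 ± 0.23 in Hif2α KO (adjusted p = 0.187, not past the threshold) and -1.16 ± 0.23 in DKO kidneys (adjusted p = 0.00663). Plekhm1 had 103, 121, 101 and 126 CPM in Hif1α KO, 109, 117 and 128 CPM in Hif2α KO and 115, 89.9 and 85.9 CPM in DKO kidneys, again between the KI and the Cre(−) ranges throughout (-0.55 ± 0.11, adjusted p = 0.0162; -0.48 ± 0.12, adjusted p = 0.0592, not past the threshold; and -0.77 ± 0.12, adjusted p = 0.00248). Atg7 had 35.6, 44.7, 40.0 and 46.3 CPM in Hif1α KO, 36.6, 44.3 and 56.1 CPM in Hif2α KO and 40.2, 34.2 and 38.5 CPM in DKO kidneys. It fell in Hif1α KO (-0.52 ± 0.12, adjusted p = 0.0263) and in DKO kidneys (-0.67 ± 0.13, adjusted p = 0.00696). Sqstm1 had 947, 1126, 942 and 1145 CPM in Hif1α KO, 989, 978 and 1128 CPM in Hif2α KO and 959, 839.8 and 799 CPM in DKO kidneys, and it passed the test in DKO kidneys alone (-0.53 ± 0.10, adjusted p = 0.00649). All 10 values stayed above the Cre(−) range. Atg4b, with 46.8, 46.9, 46.6 and 46.8 CPM in Hif1α KO, 44.8, 45.5 and 49.8 CPM in Hif2α KO and 45, 45.9 and 43.4 CPM in DKO kidneys, was the one member that fell in all 3 comparisons (-0.28 ± 0.05, -0.29 ± 0.06 and -0.35 ± 0.06, adjusted p = 0.0104, 0.0265 and 0.00266).

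Among the mitophagy receptors, Bnip3 was lowest where Hif2a was deleted. It had 116, 86.6, 81.5 and 83.6 CPM in Hif1α KO, 62.3, 54.1 and 66.9 CPM in Hif2α KO and 55.7, 64 and 65.1 CPM in DKO kidneys. The 6 libraries of the latter 2 groups lay below all Hif1α KO and all Cre(−) values, but KI replicate 1 fell in their range. The log2 fold change against KI was -0.99 ± 0.27 in DKO (adjusted p = 0.0287) and -1.0 ± 0.27 in Hif2α KO kidneys (adjusted p = 0.0707, not past the threshold). Without KI replicate 1 they were -1.31 (adjusted p = 0.00198) and -1.32 (0.00482), and without KI replicate 3 they were -0.55 (0.163) and -0.56 (0.323), so that this call depends on which KI mice are included. Compared directly, Hif1α KO minus Hif2α KO was 0.59 ± 0.26 for Bnip3 (adjusted p = 0.296). Bnip3l had 147, 149, 127 and 139 CPM in Hif1α KO, 151, 152 and 151 CPM in Hif2α KO and 145, 130.3 and 134 CPM in DKO kidneys. It fell in Hif1α KO (-0.45 ± 0.11, adjusted p = 0.0259) and in DKO kidneys (-0.49 ± 0.12, adjusted p = 0.014), and without KI replicate 3 these became -0.26 (adjusted p = 0.0834) and -0.30 (0.0489). Fundc1 had 20.0 to 24, 19.4 to 23.9 and 21.2 to 24.4 CPM and did not pass the test in any comparison.

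A further 4 members fell in DKO kidneys. Gabarap had 267, 238 and 241 CPM (-0.44 ± 0.12, adjusted p = 0.0292), Atg2b had 79.1, 68.7 and 71.4 CPM (-0.42 ± 0.10, adjusted p = 0.0138), Vps18 had 51.5, 45.1 and 44.1 CPM (-0.32 ± 0.10, adjusted p = 0.0439) and Ulk2, the paralog of Ulk1, had 50.8, 53.7 and 52.1 CPM (-0.21 ± 0.06, adjusted p = 0.0389). Of the 11 members that fell, Ulk2 and Bnip3 are the ones that had not also risen in KI against Cre(−), a comparison that shares the KI libraries. In Hif1α KO kidneys Gabarap, Atg2b, Vps18 and Ulk2 had 259.7 to 364, 74.1 to 92.5, 44.2 to 52.6 and 52 to 58.5 CPM, and in Hif2α KO kidneys 269 to 293, 72.6 to 75.2, 46.1 to 56.6 and 49.9 to 50.5 CPM. Among the members that fell in KI against Cre(−), Atg9a had 51.1, 43.6, 42.9 and 47.7 CPM in Hif1α KO, 38.3, 41.5 and 46.1 CPM in Hif2α KO and 40.0, 44.7 and 41.7 CPM in DKO kidneys, and Atg10 had 7.77 to 8.6, 6.74 to 8.81 and 7.27 to 10.8 CPM, all below the lowest Cre(−) value of the same gene. Wipi2 had 75.9 to 84.4, 77.9 to 79.9 and 75.8 to 78.9 CPM. Uvrag stayed above the Cre(−) range in each group, with 59.7, 68.2, 67.9 and 67.6 CPM in Hif1α KO, 51.4, 63.6 and 61.2 CPM in Hif2α KO and 64.3, 55.3 and 56.9 CPM in DKO kidneys.

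Ulk1, Map1lc3b, Gabarapl1, Wipi1 and Atg9b, members widely studied as targets of TFE3 and TFEB, did not pass the test against KI in any deletion group. Ulk1 had 119, 118, 109 and 119 CPM in Hif1α KO, 91.5, 105 and 105 CPM in Hif2α KO and 100.2, 102 and 95.4 CPM in DKO kidneys. Map1lc3b had 201, 192, 160.4 and 181 CPM in Hif1α KO, 175, 178 and 170.5 CPM in Hif2α KO and 158, 165 and 161 CPM in DKO kidneys. Gabarapl1 had 799.9, 751, 584 and 655 CPM in Hif1α KO, 759, 618 and 613 CPM in Hif2α KO and 651, 663 and 614 CPM in DKO kidneys. Every Gabarapl1 value in these 10 libraries was below the lowest Cre(−) value, as were those of KI replicates 1 and 2, on the CPM scale alone. In TPM, Gabarapl1 had 556 to 659 in Cre(−), 496 to 658 in Hif1α KO, 566 to 656 in Hif2α KO and 578 to 602 in DKO kidneys, which overlap. Wipi1 had 30.5, 34.4, 30.2 and 30.2 CPM in Hif1α KO, 33.9, 33 and 34 CPM in Hif2α KO and 31.8, 37.2 and 34.9 CPM in DKO kidneys, of which DKO replicate 2 lay within the Cre(−) range. Atg9b, close to the floor, had 1.25, 1.4, 1.05 and 0.742 CPM in Hif1α KO, 0.562, 1.79 and 1.32 CPM in Hif2α KO and 0.731, 0.79 and 0.293 CPM in DKO kidneys.

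**Figure D5:**
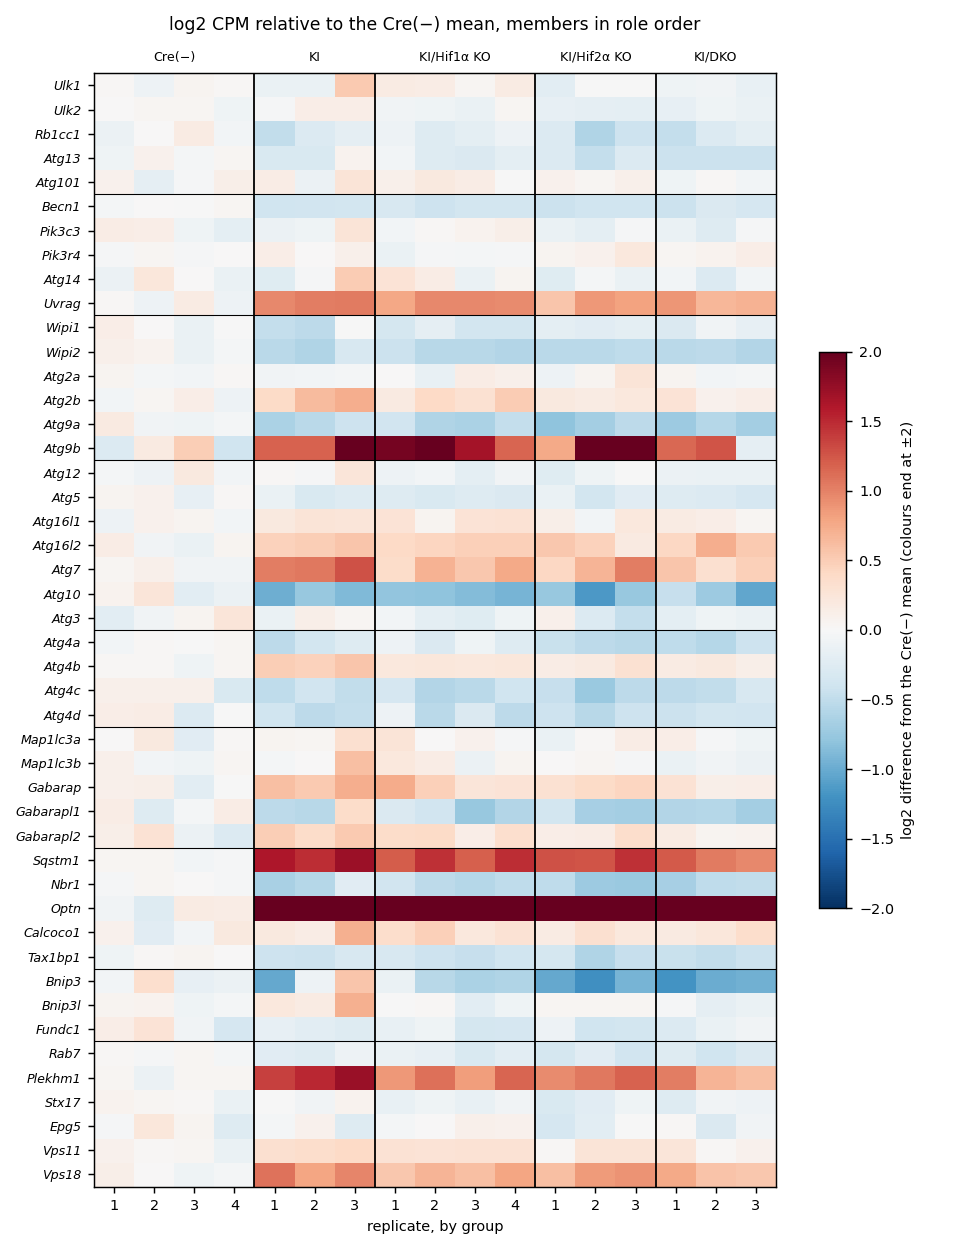
Log2 CPM relative to the Cre(−) mean (colour, ending at ±2) of the 46 members (rows, by role) in the 17 libraries (columns, by group and replicate). Optn is past the end of the scale in all 13 libraries with the fusion, Sqstm1, Plekhm1, Uvrag, Atg7 and Vps18 are red in all of them, and Becn1, Wipi2, Atg9a, Atg10 and Tax1bp1 are blue in all of them on this scale (on TPM, Becn1 and Tax1bp1 lie above 0 in KI).

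The calls against KI rest on few libraries. Of the 5 in Hif1α KO, 1 (Atg4b) remained without Hif1α KO replicate 1 or without replicate 3, 2 without KI replicate 3 and 3 without KI replicate 2. The call of Atg4b in Hif2α KO was lost without Hif2α KO replicates 1 or 2 or KI replicates 2 or 3, and 5 members were called without KI replicate 1. Of the 11 in DKO kidneys, 5 (Atg7, Atg4b, Sqstm1, Optn and Plekhm1) remained without DKO replicate 2 or without replicate 3. Without KI replicate 3, 6 members were lower (Atg7, Atg4b, Sqstm1, Optn, Bnip3l and Plekhm1) and Wipi1 was higher.

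The 2 single deletions were also compared with each other. None of the 46 members passed edgeR's test between Hif1α KO and Hif2α KO kidneys (73 of 17011 genes did, 0.429%, of which 0.329% higher and 0.0999% lower in Hif1α KO), and 4 had an unadjusted p under 0.05 (Rb1cc1, Pik3r4, Atg4a and Bnip3, named after their values were seen), against 14.9% of all genes. DESeq2's test called none of the members either. A different effect of the deletions on any member was therefore not detected with 4 and 3 mice, which does not show that they act alike: the unadjusted 95% interval of the log2 difference, Hif1α KO minus Hif2α KO, was -0.82 to 0.10 for Optn and 0.03 to 1.14 for Bnip3 (t distribution with the 12 residual degrees of freedom). The interaction, that is, whether deleting Hif1a had another effect with Hif2a deleted than with Hif2a intact, was called by edgeR for 0 members and 0 of 17011 genes and by DESeq2 for 0 members, with 2 members (Ulk2 and Atg4b) at an unadjusted p under 0.05, against 5.95% of all genes.

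Outside the list, 35 other genes of the pathway were counted. In KI against Cre(−) 11 of them rose and 12 fell (65.7%, against the 60.9% of all genes given above). The largest rises were those of Tecpr1, which encodes a protein of autophagosome and lysosome fusion, with 45.5 to 50.2 CPM in Cre(−) and 359.9 to 406 CPM in KI kidneys (2.95 ± 0.22, adjusted p = 3.27e-08), and of Lamp1, a lysosomal membrane glycoprotein, with 966 to 1052 CPM in Cre(−) and 1889 to 2045 CPM in KI kidneys (0.96 ± 0.09, adjusted p = 2.34e-07). Among those that fell was Ccpg1, an ER-phagy receptor, with 181 to 231 CPM in Cre(−) and 108 to 149 CPM in KI kidneys (-0.80 ± 0.14, adjusted p = 0.000119). By subgroup, 5 rose and 1 fell of 11 genes for initiation and membrane supply, where Tecpr1 was counted, and 5 rose and 2 fell of 9 for fusion. Of 8 further mitophagy genes 0 rose and 3 fell, and of 7 receptors for ER-phagy and other cargo 1 rose and 6 fell. These stand beside 31.6% and 29.3% of all genes. On log2(TPM + 1) the subgroup counts became 10 and 0, 8 and 0, 6 and 1, and 2 and 2, or 26 higher and 3 lower of the 35. Against KI, 4 of the 35 fell in Hif1α KO (11.4%, against 5.44% of all genes; Tmem41b, Tecpr1, Vps33a and Tollip). By edgeR 0 changed in Hif2α KO (against 1.39% of all genes; 9 had an unadjusted p under 0.05, against 19.2%). In DKO kidneys 8 fell (22.9%, against 12.7%), and none rose. Tecpr1 had 147, 245, 169 and 221 CPM in Hif1α KO (-0.95 ± 0.21, adjusted p = 0.0215), 219, 277 and 374 CPM in Hif2α KO and 256, 146 and 146 CPM in DKO kidneys (-1.04 ± 0.23, adjusted p = 0.0111).

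The members had 2 to 21 annotated transcripts each. In 31 of the 46 a single transcript made up over 50% of the summed TPM of the gene in every library, and the transcript with the highest mean over all libraries also led in the KI mean for 45 of 46, Atg16l2 being the exception. The leading transcript of Optn made up 68.6% to 79.8% of its TPM in Cre(−) and 66.0% to 69.8% in KI kidneys, and that of Sqstm1 61.6% to 65.5% and 62.1% to 64.2%. The same transcript of either gene thus led in both groups, and both transcripts are annotated as protein coding. That was not so for Gabarap, Gabarapl2, Becn1 and Atg4d (retained intron), Uvrag, Atg4b and Rb1cc1 (nonsense-mediated decay), or Bnip3l, Vps18 and Atg9b (processed transcript). The leading transcript of Gabarap made up 84.2% to 91.5% of its TPM in Cre(−) and 86.9% to 89.5% in KI kidneys. Gene sums and ATG8 shares given here hold coding and other transcripts alike.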

How the data were processed

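Poly(A) RNA of whole kidney was sequenced from 17 mice in 5 groups, single-end, with a stranded kit. The authors trimmed reads with Trim Galore (version 0.6.6) and cutadapt (2.5) and aligned them with STAR (2.7.9a), per the labels, and quantified transcripts with RSEM. The files the authors deposited hold an expected count and a TPM for each mouse transcript and library; their methods name a human genome build for alignment and a human or mouse build (GRCm38) for annotation, and the transcripts listed are those of the mouse. The strand setting of the counting is not given in the sources used here. Transcripts were assigned to genes by GENCODE M21 (GRCm38), which matched 97.8% of transcripts, and summed.

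Summed expected counts were rounded and tested with edgeR (4.0.16, R 4.3.3): TMM scaling, filterByExpr with a minimum count of 10, a quasi-likelihood fit in which each of the 5 groups had its own coefficient and all 17 libraries shared the spread, and Benjamini-Hochberg adjustment over 17011 genes, called at 0.05. SE is the absolute log2 fold change divided by the square root of F. Library totals ranged from 16504419 to 24668827. Each library is labelled as a sample of its own group; where separate mice are not stated, p-values measure only the spread between these samples. The members and lists were chosen with earlier results of these data known. Values per library are given for genes known from TFE3, TFEB and hypoxia biology and for the members with the largest changes without overlap in each comparison, and others were named to account for every role. Alternatives were DESeq2 (1.42.0) and its size factors, no filter, a fit of only the groups compared, a replicate block, limma (3.58.1) on log2(TPM + 1) and log2(TPM + 0.1), only Cre(−) mice with or without the flox allele, and leaving out each library. Counts were simulated for KI against Cre(−) over 16782 genes, with a small share of genes changed, as many up as down. There edgeR found 84% of the 4-fold and 66% of the 2-fold changes, and 2.6% of its calls were false (14.0% with DESeq2). In the data 60.9% of genes were called, so these rates do not carry over to that comparison. Figures were drawn with matplotlib (3.10.9) in Python (3.11.15). The values of 1 gene of the wider pathway are not reported here.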

Additional observations from a re-analysis of the deposited data

Results flagged for a closer look

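In groups of 4 mice, the highest or lowest library was tested against the range of its group by Dixon's criterion, and 9 of 92 combinations of member and group stood apart, where chance gives about 1 in 20. In the Hif1α KO group, Ulk1 had 109 CPM in replicate 3 against 118 to 119 in the others, Pik3r4 had 36.1 CPM in replicate 1 against 38.6 to 39.0, and Uvrag had 59.7 CPM in replicate 1 against 67.6 to 68.2. Wipi1 had 34.4 CPM in replicate 2 against 30.2 to 30.5, and Atg16l1 had 35.1 CPM in replicate 2 against 40.9 to 41.3. Bnip3 had 116 CPM in Hif1α KO replicate 1, above the 81.5 to 86.6 CPM of the other 3 mice. In the Cre(−) group, Atg4b had 37.8 CPM in replicate 3 against 40.9 to 41.2, Atg4c had 15.3 CPM in replicate 4 against 20.3 to 20.4, and Plekhm1 had 52.3 CPM in replicate 2 against 57.8 to 58.0.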

How the results depend on the processing

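Of the 29 members called in KI against Cre(−), 14 were called under every alternative and 22 without each library in turn (26 to 30 called). Of the 23 called in DKO against Cre(−) 8 and 21 were (21 to 26 called without 1 library). The 8 include Becn1 and Rab7, whose calls did not keep their direction. Both fell on counts but were called higher with limma on TPM (up to 0.32 and 0.28). In Hif1α KO against KI, 5 calls became 3 and 3 with limma at pseudocounts of 1 and 0.1 and 0 in a fit of only the groups compared, and ranged from 1 to 5 without 1 library. In Hif2α KO against KI, 1 call became 5 with DESeq2 and 0 without the filter, with limma at either pseudocount and in a fit of only the groups compared, and ranged from 0 to 5 without 1 library. In DKO against KI, 11 calls became 6 and 6 with limma and 7 in a fit of only the groups compared, and ranged from 5 to 11 without 1 library. The cause was not tested, except that the fits of fewer groups or libraries hold fewer samples. No member was called between the single deletions or in the interaction under any alternative.

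On log2(TPM + 1) and log2(TPM + 0.1), 9 of the 13 falls in KI against Cre(−) had the opposite sign, while lying below the median of all genes (0.38 and 0.48): Rb1cc1 0.21 and 0.21, Becn1 0.18 and 0.18, Wipi1 0.18 and 0.19, Atg5 0.23 and 0.24, Atg4a 0.12 and 0.13, Atg4c 0.049 and 0.056, Nbr1 0.009 and 0.009, Tax1bp1 0.081 and 0.082, and Rab7 0.31 and 0.31. So had 10 of the 15 falls in DKO against Cre(−) (medians 0.46 and 0.56): Rb1cc1 0.15 and 0.16, Atg13 0.21 and 0.23, Becn1 0.32 and 0.32, Atg5 0.25 and 0.26, Atg4a 0.091 and 0.10, Atg4c 0.10 and 0.11, Atg4d 0.019 and 0.02, Nbr1 0.014 and 0.014, Tax1bp1 0.09 and 0.091, and Rab7 0.28 and 0.28.

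Same-numbered mice of different groups were not paired: over 31 pairs the correlation of their deviations from the group means was -0.223 to 0.249, and 4 pairs exceeded 0.1. With a replicate block the calls were 30 in KI against Cre(−), 23 in DKO against Cre(−), 4 in Hif1α KO, 0 in Hif2α KO and 8 in DKO against KI, and 0 between the single deletions and in the interaction. Among the members, Atg9b lies closest to the floor of 3 counts.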
